A study of Homo sapiens with 12 samples.

Results

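The 9 genes described here are TRA2A, TRA2B, CLK1, CLK2, CLK3, CLK4, SRPK1, SRPK2 and DYRK1A, which code for regulators of splicing. They were chosen by name out of the 62710 genes of the count table, together with the 540 splicing events that the event table lists under their symbols. Poly(A) RNA was sequenced in HEK293T cells (a line from human embryonic kidney, transformed in culture) 48 hours after the effector and guide RNA plasmids were transfected, 200 ng of each. Each of the 6 groups has 2 replicates. The RBM25 groups carried dCasRx-RBM25, the catalytically dead RNA-targeting enzyme CasRx joined to the splicing factor RBM25, with a nontargeting guide (RBM25_NT), a guide to exon 10 of MAPT (RBM25_MAPT) or a guide to exon 13 of CD46 (RBM25_CD46). The RBFOX1N groups carried RBFOX1N-dCasRx-C, which joins dCasRx to parts of the splicing factor RBFOX1, with the nontargeting guide (RBFOX1N_NT) or the MAPT guide (RBFOX1N_MAPT). The dCasRx_NT group carried dCasRx without a splicing factor and the nontargeting guide. Every group therefore held a transfected dCasRx protein, and no group was left untransfected. The effectors were compared by setting the 3 RBM25 guide groups against the 2 RBFOX1N guide groups, and each effector against dCasRx under the nontargeting guide. These last comparisons share the dCasRx_NT libraries.

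TRA2A and TRA2B are RNA-binding proteins with serine- and arginine-rich (RS) domains that bind GAA-rich exon sequence and favour inclusion of the bound exon. TRA2B is known to bind a poison exon in its own pre-mRNA, an exon that brings in a premature stop codon and sends the transcript to nonsense-mediated decay (NMD). The SRPK kinases phosphorylate the RS domains of SR proteins mainly in the cytoplasm, the CLK kinases do so in the nucleus, and DYRK1A is a related kinase of splicing factors and other proteins; CLK transcripts are known for skipping of an exon upstream of the kinase domain and for detained introns that keep the RNA in the nucleus.

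The exons on which the results turn are shown first, from GENCODE release 29 (GRCh38, the build called hg38), read 5′ to 3′ on the transcript strand. The TRA2B poison exon has 276 bases and lies at chr3:185931577-185931852 on the minus strand. With these ends it is in 3 annotated transcripts, 1 of them NMD and none coding, but it overlaps an exon of a coding transcript. Bases 1 to 81 are given, with the annotated stop codon in capitals.
TRA2B 276 nt exon, first base to stop codon: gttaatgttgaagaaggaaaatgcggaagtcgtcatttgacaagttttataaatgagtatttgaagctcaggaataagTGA
The whole poison exon holds 12 matches of AGAA, the letters of the core TRA2 motif, counted on the transcript strand with overlaps allowed. Of 5322 internal exons of coding transcripts within 10% of its length, 76.6% hold at least 1 match and 0.432% hold at least 12. Also counted in the poison exon were TGCATG, with 1 match (5.52% of these exons hold at least 1), and CGGGCA, with 0. In the other exons counted, AGAA matches ran between 0 in the TRA2A 129 nt exon and 4 in the DYRK1A 148 nt exon. Of exons near the DYRK1A exon in length, 7.52% hold at least 4.

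TRA2B and TRA2A each have an exon of 189 nt, which is 63 codons and codes for part of the RNA-binding domain. The TRA2B exon lies at chr3:185923796-185923984 and the TRA2A exon at chr7:23512894-23513082, both on the minus strand. They share 138 of 189 bases (73.0%), and capitals mark the 51 that differ.
TRA2B 189 nt exon: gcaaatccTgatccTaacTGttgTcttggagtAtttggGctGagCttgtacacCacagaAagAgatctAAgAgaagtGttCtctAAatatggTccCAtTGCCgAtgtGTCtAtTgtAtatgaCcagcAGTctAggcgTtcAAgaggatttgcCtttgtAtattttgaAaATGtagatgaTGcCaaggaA
TRA2A 189 nt exon: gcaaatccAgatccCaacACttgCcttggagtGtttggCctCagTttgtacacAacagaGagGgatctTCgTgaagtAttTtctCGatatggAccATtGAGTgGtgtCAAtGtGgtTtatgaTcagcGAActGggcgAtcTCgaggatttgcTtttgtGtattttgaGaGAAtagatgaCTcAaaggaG
CLK1 and CLK4 each have an exon of 167 nt in the part that codes for the kinase domain. The CLK1 exon lies at chr2:200857718-200857884 and the CLK4 exon at chr5:178613473-178613639, both on the minus strand. They share 140 of 167 bases (83.8%), and capitals mark the 27 that differ.
CLK1 167 nt exon: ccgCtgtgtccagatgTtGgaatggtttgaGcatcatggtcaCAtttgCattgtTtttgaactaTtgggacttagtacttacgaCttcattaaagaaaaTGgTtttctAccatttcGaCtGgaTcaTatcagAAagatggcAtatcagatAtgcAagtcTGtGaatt
CLK4 167 nt exon: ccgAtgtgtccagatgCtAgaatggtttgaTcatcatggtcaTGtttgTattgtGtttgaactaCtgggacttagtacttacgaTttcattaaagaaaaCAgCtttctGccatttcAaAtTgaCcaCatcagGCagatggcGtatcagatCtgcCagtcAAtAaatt

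Total counts ran between 32487927 and 53985468 per library, and all 9 genes passed the filter on low counts. The 9 markers fixed for HEK293T cells had group means of 5.84 to 789 CPM, counts scaled to library size. Of 7 markers of other cell types, INS had no read, PTPRC, ALB, PECAM1, MYH6 and GFAP stayed at or under 0.80 CPM in each group mean, and COL1A1, a collagen gene, was at 22.1 to 30.9 CPM. On the second principal component of expression the dCasRx_NT libraries stood at 70.1 and 30.3 and the other 10 between -15.2 and -3.77. Results against dCasRx_NT rest on those 2 libraries.

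In gene level, DYRK1A was the member that moved most. It lay 0.37 lower on the log2 scale in the RBM25 groups than in the RBFOX1N groups, and it was higher with either effector than with dCasRx. DYRK1A had 81.2 and 76.6 CPM in RBM25_NT, 75.7 and 84.9 CPM in RBM25_MAPT, and 73.6 and 78.8 CPM in RBM25_CD46. It had 97.6 and 110.8 CPM in RBFOX1N_NT, 98.9 and 98.7 CPM in RBFOX1N_MAPT, and 52.5 and 58.2 CPM in dCasRx_NT. The 3 effectors did not overlap: all 4 RBFOX1N libraries lay above all 6 RBM25 libraries, and both dCasRx libraries lay below them. DYRK1A fell by 0.37 on the log2 scale in RBM25 against RBFOX1N groups (SE 0.06; adjusted p = 0.000334, edgeR's quasi-likelihood test with Benjamini-Hochberg adjustment). It rose by 0.51 in RBM25_NT against dCasRx_NT (SE 0.10, adjusted p = 0.00626, edgeR) and by 0.91 in RBFOX1N_NT against dCasRx_NT (SE 0.10, adjusted p = 7.0e-05, edgeR). Without RBM25_NT replicate 1, the difference from dCasRx_NT was 0.48 with an adjusted p of 0.0591 (edgeR). In bulk RNA, fewer cells with a transcript and less of it per cell cannot be told apart.

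SRPK2 rose by 0.18 on the log2 scale in RBM25 against RBFOX1N groups (SE 0.06, adjusted p = 0.0345, edgeR). Its libraries held 56.1 to 70.5 CPM with RBM25, with a median of 66.0 CPM, against 54.0, 57.6, 60.1 and 56.5 CPM with RBFOX1N and 60.6 and 61.4 CPM with dCasRx. The ranges of RBM25 and RBFOX1N overlapped. In 7 of 16 alternatives SRPK2 no longer passed, with adjusted p between 0.0104 and 0.184 over the 16 (edgeR, or DESeq2 in 1 of them); those 7 leave out RBM25_NT replicate 2, RBM25_CD46 replicate 2 or any 1 of the 4 RBFOX1N libraries, or take only the groups compared.

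Together 2 of the 9 genes were called at an adjusted p under 0.05 between RBM25 and RBFOX1N, where 39.6% of the 20593 genes tested were called (19.2% higher, 20.4% lower). Against dCasRx_NT, 1 of 9 was called in RBM25_NT and 1 of 9 in RBFOX1N_NT, DYRK1A in each case, where 7.62% and 10.8% of all genes were. The median log2 difference of the 9 genes between RBM25 and RBFOX1N was 0.045, against 0.011 over all genes. TRA2A, TRA2B, CLK1, CLK2, CLK3, CLK4 and SRPK1 did not pass in any of the 3 comparisons. Without RBM25_MAPT replicate 2, CLK1 passed between RBM25 and RBFOX1N, at -0.21 on the log2 scale (adjusted p = 0.0223, edgeR), against -0.14 with all libraries (SE 0.08, adjusted p = 0.189).

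TRA2B, the member with the highest CPM, averaged 294 ± 23.0 CPM with RBM25 (SD, n = 6), 298 ± 0.703 CPM with RBFOX1N (SD, n = 4) and 262 ± 16.9 CPM with dCasRx (SD, n = 2). TRA2A averaged 119 ± 9.77 CPM with RBM25, 116 ± 4.55 CPM with RBFOX1N and 123 ± 7.81 CPM with dCasRx. CLK1 averaged 50.0 ± 4.64 CPM with RBM25, 55.1 ± 2.00 CPM with RBFOX1N and 50.8 ± 8.21 CPM with dCasRx. The differences of TRA2A, TRA2B and CLK1 between any 2 effectors were at most 0.19 in size on the log2 scale. CLK2 averaged 149 ± 10.5, 140 ± 9.52 and 143 ± 18.1 CPM, CLK3 93.3 ± 5.82, 90.4 ± 3.67 and 85.1 ± 7.10 CPM, and CLK4 18.3 ± 1.54, 18.6 ± 1.41 and 19.9 ± 3.00 CPM with RBM25, RBFOX1N and dCasRx. For CLK2, CLK3 and CLK4 the libraries of the 3 effectors overlapped. SRPK1 averaged 181 ± 17.0 CPM with RBM25, 171 ± 4.25 CPM with RBFOX1N and 177 ± 0.710 CPM with dCasRx. CPM is not scaled by transcript length, so these levels are compared between groups and not between genes.

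**Figure D1:**
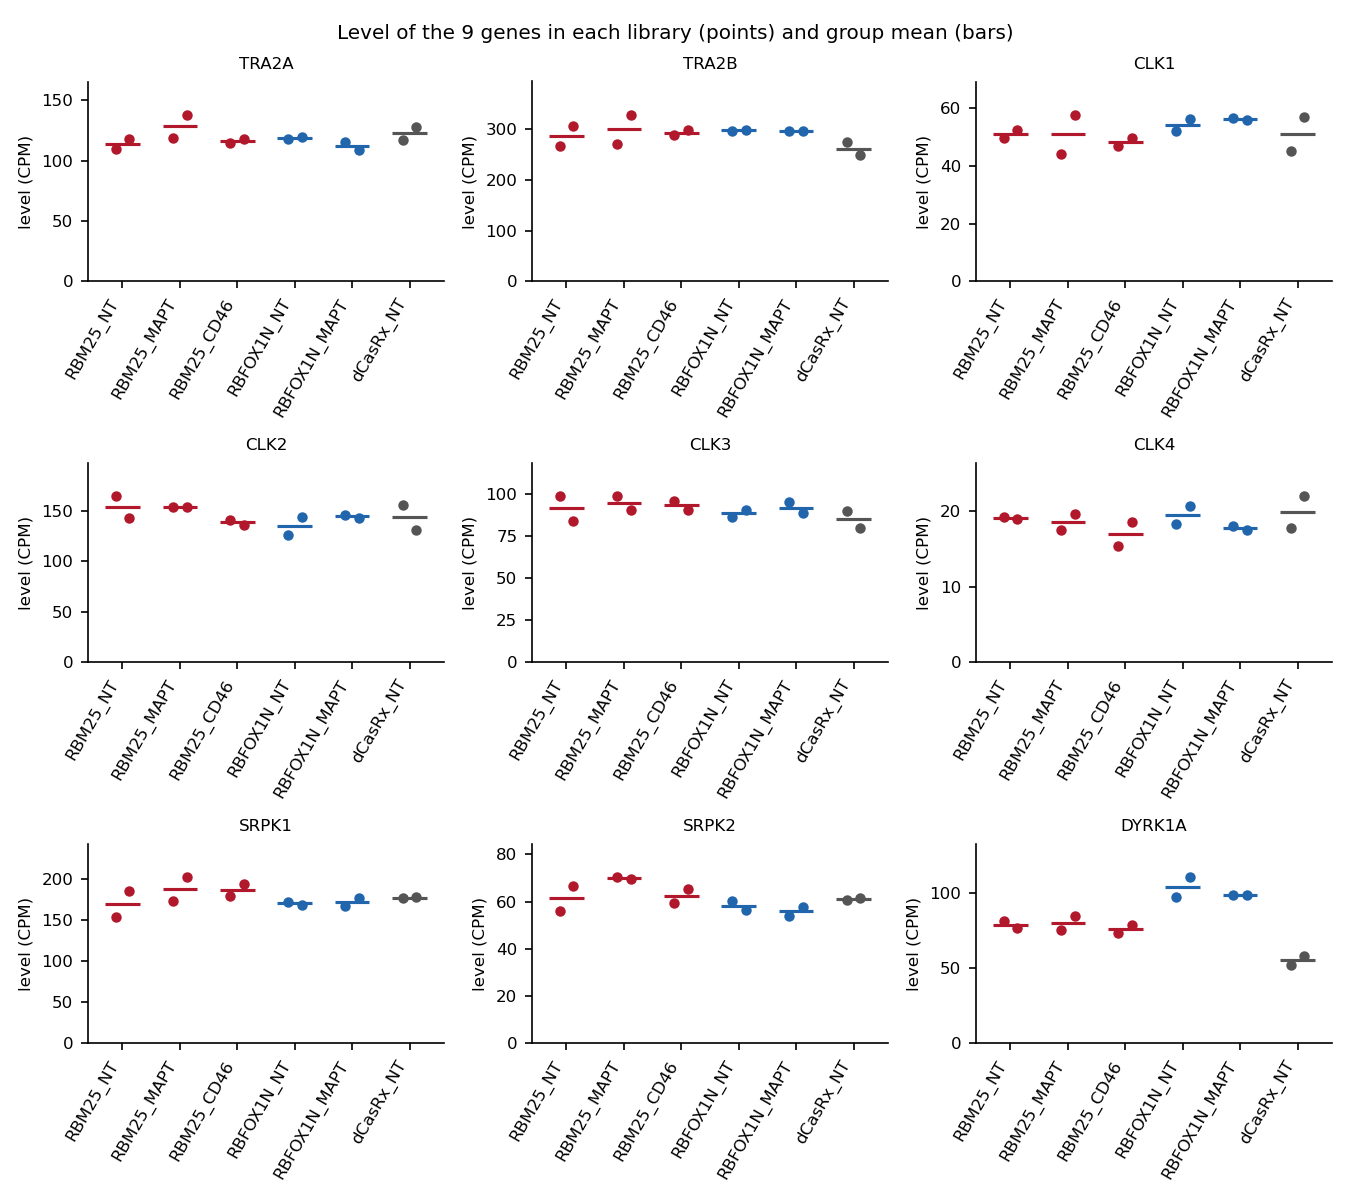
Level of each of the 9 genes in CPM (y axis, from 0, its own scale per gene) in the 6 groups (x axis); points are libraries and bars are means of 2. DYRK1A separates the 3 effectors, between 73.6 and 84.9 CPM with RBM25, 97.6 and 110.8 CPM with RBFOX1N, and at 52.5 and 58.2 CPM with dCasRx.

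The group means of DYRK1A spanned 0.91 on the log2 scale, those of SRPK2 0.33 and those of the other 7 genes 0.15 to 0.23. Over the 6 group means, the genes whose log2 CPM pattern lay nearest to that of DYRK1A, among 10075 genes with a mean of at least 10 CPM, were KAZALD1, CDKN2D and TXNIP, with root mean square differences of 0.0546, 0.0596 and 0.0608.

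The partners of these kinases were described by lists. Of 12 SR proteins, the substrates of SRPK and CLK kinases, 6 rose and 1 fell in RBM25 against RBFOX1N groups (edgeR, adjusted p under 0.05), with a median log2 difference of 0.12 against 0.011 over all genes. SRSF1 rose by 0.56 (SE 0.12), SRSF10 by 0.43 (SE 0.07), SRSF12 by 0.35 (SE 0.07) and SRSF11 by 0.30 (SE 0.07). SRSF2 fell by 0.20 (SE 0.05). Of 21 SR-related proteins and TRA2 partners, 9 rose and 1 fell, with a median of 0.12; LUC7L3, a U1 snRNP-associated protein, rose by 0.51 (SE 0.07), ARGLU1 by 0.44 (SE 0.07) and the splicing coactivator SRRM1 by 0.36 (SE 0.05), while LUC7L2 fell by 0.33 (SE 0.07).

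Of 14 other kinases of this network, 4 rose and 2 fell, with a median of 0.008. SRPK3, the third SRPK kinase, fell by 1.85 on the log2 scale (SE 0.20) and DYRK1B, the nearest relative of DYRK1A, by 0.61 (SE 0.10), while CDK11B rose by 0.41 (SE 0.07) and DYRK3 by 0.35 (SE 0.06). Of 9 phosphatase subunits and import factors, 2 rose and 3 fell, with a median of -0.012. PPP1R10, a regulatory subunit of protein phosphatase 1, fell by 1.51 (SE 0.06) and PPP2R1A by 0.21 (SE 0.06); PPP2CA rose by 0.49 (SE 0.10) and PPP1CC by 0.32 (SE 0.07). These rises and falls compare RBM25 with RBFOX1N. Against dCasRx_NT, log2 differences of the 14 kinases ran between -0.278 and 0.377 in RBM25_NT and between -1.198 and 1.539 in RBFOX1N_NT. Those of the 9 phosphatase and import genes ran between -0.12 and 0.302 in RBM25_NT and between -0.44 and 1.623 in RBFOX1N_NT. Between RBM25 and RBFOX1N, the share of each list that passed is to be read against the 39.6% of all genes. The 9 HEK293T markers moved in the same comparison, 4 higher and 1 lower, with a median of 0.13 and a range of -1.27 to 0.74; their part in these results was not tested. Against dCasRx_NT, edgeR called 1 of 14 kinases and 1 of 21 SR-related proteins in RBM25_NT, both higher, and in RBFOX1N_NT 2 kinases higher and 1 lower and 2 of 9 phosphatase and import genes higher, where 7.62% (3.88% higher, 3.74% lower) and 10.8% (7.52% higher, 3.25% lower) of all genes were. It called 0 of 12 SR proteins in either, of which 0 and 2 had an unadjusted p under 0.05, 0 of the 9 in RBM25_NT (1 unadjusted) and 0 of the 21 in RBFOX1N_NT (7 unadjusted). Of the 20593 genes, 5051 in RBM25_NT and 5737 in RBFOX1N_NT had an unadjusted p under 0.05 (edgeR).

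Of the 540 events of the 9 genes, 137 had enough reads for a test: 61 cassette exons, 47 introns, 20 alternative 3′ splice sites and 9 alternative 5′ splice sites. Inclusion is given as percent spliced in (PSI), the share of an event's reads, in percent, that carry the exon, intron or site. Between RBM25 and RBFOX1N, 25 of the 137 passed an adjusted p under 0.05 in the quasi-binomial test over 100377 events, where 14.0% of all events passed. Of these, 12 were higher and 13 lower in RBM25, against 6.78% and 7.25% of all events. The median difference of the 137 was 0.34 points, against 0.09 points over all events. Among the cassette exons 3 were higher and 11 lower of 61, against 7.34% and 10.6% of all cassette exons, and among introns 8 were higher and 1 lower of 47, against 9.17% and 5.2% of all introns. Most of the differences were small, and 1 of the 137 events was called with a difference of at least 10 points, against 2.82% of all events (1.28% higher, 1.54% lower). Against dCasRx_NT, 9 events passed in RBM25_NT (1 higher, 8 lower) and 6 in RBFOX1N_NT (all 6 lower), where 2.32% (0.908% higher, 1.41% lower) and 2.71% (1.47% higher, 1.23% lower) of all events passed. The 1 higher and 1 of the 8 lower in RBM25_NT are competing sites of the same TRA2A 3′ splice site choice. The same pair is counted once among the 12 higher and once among the 13 lower between RBM25 and RBFOX1N. With at least 10 points, 3 were called in RBM25_NT, all lower, and 0 in RBFOX1N_NT, where 0.733% (0.291% higher, 0.442% lower) and 1.15% (0.608% higher, 0.539% lower) of all events were. A moderated t test coded after limma's method, named limma on logit values below, called 0 in both. An unadjusted p under 0.05 (quasi-binomial) was found for 25 of the 137 in RBM25_NT and 17 in RBFOX1N_NT, where 15704 and 15086 of the 100377 events had one.

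**Figure D2:**
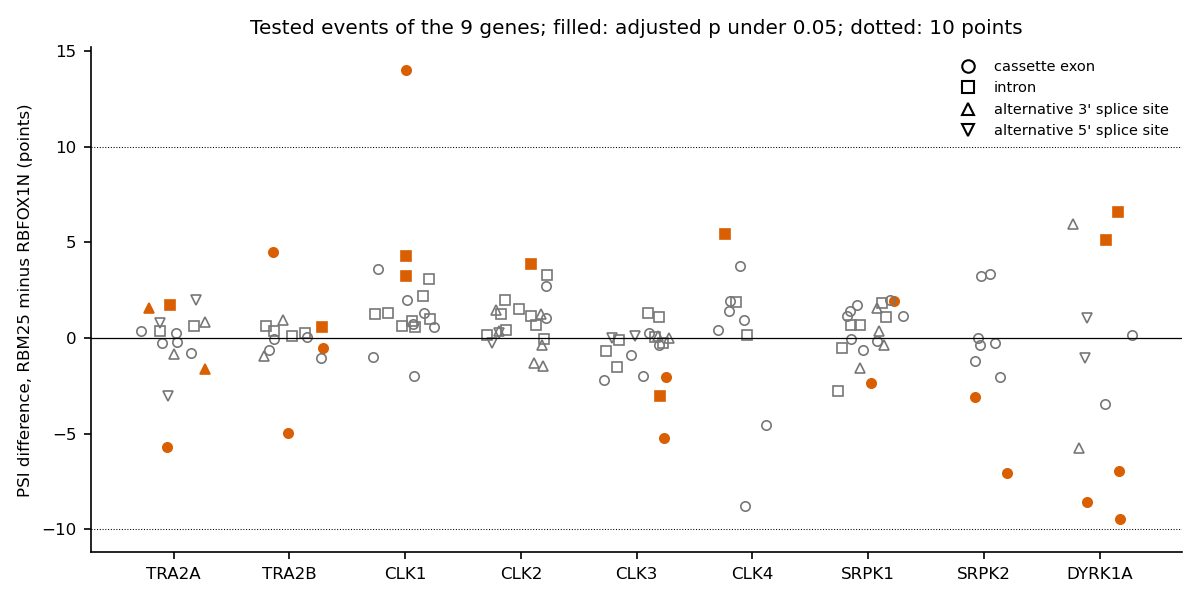
Difference of mean PSI between RBM25 and RBFOX1N (y axis, points of percent, positive where RBM25 is higher) for the 137 tested events by gene (x axis); marker shape gives the type of event and filled markers passed an adjusted p under 0.05. The CLK1 167 nt exon at 14.0 points is the marker beyond the dotted lines at 10 points.

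The TRA2B poison exon was included less with either effector than with dCasRx alone. Its PSI was 3.28% and 2.92% in RBM25_NT, 2.83% and 3.53% in RBM25_MAPT, and 3.5% and 3.45% in RBM25_CD46. It was 3.17% and 3.38% in RBFOX1N_NT and 4.14% and 4.87% in RBFOX1N_MAPT, against 5.89% and 5.5% in dCasRx_NT. All 10 effector libraries lay below both dCasRx libraries, and the RBM25 and RBFOX1N libraries overlapped. The TRA2B poison exon fell by 2.60 points in RBM25_NT against dCasRx_NT (SE 0.52, adjusted p = 0.0100, quasi-binomial) and by 2.42 points in RBFOX1N_NT against dCasRx_NT (SE 0.53, adjusted p = 0.0169, quasi-binomial). Between RBM25 and RBFOX1N the difference was -0.64 points (SE 0.27, adjusted p = 0.161). Each value rests on 1380 to 2694 reads per library. Neither result, each under the 10 points of a called event, kept an adjusted p under 0.05 without dCasRx_NT replicate 1 or 2. Nor did they without RBM25_NT replicate 2, RBFOX1N_NT replicate 1 or RBFOX1N_NT replicate 2 in the comparisons they belong to. Without these libraries the differences ran between -2.79 and -2.22 points. With limma on logit values the adjusted p was 0.282 for RBM25_NT and 0.305 for RBFOX1N_NT. Below, a call of a single event that held or was lost refers to an adjusted p under 0.05 at any difference.

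Transcripts with the poison exon that are lost to decay are not in the libraries, so its PSI is that of the RNA that remained. The gene level of TRA2B did not pass in either comparison. A second tested TRA2B exon in no annotated transcript, 114 nt long, had 0.09% to 0.23% PSI in every library.

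The exon of 189 nt in TRA2B was skipped more with RBM25 than with RBFOX1N, and more with either than with dCasRx. Its PSI was 90.4% and 85.5% in RBM25_NT, 89.5% and 87.5% in RBM25_MAPT, and 86.9% and 87.4% in RBM25_CD46. It was 93.9% and 92.5% in RBFOX1N_NT, 93.1% and 91.8% in RBFOX1N_MAPT, and 96.7% and 97.4% in dCasRx_NT. No library of 1 effector overlapped with those of another. TRA2B 189 nt inclusion fell by 4.96 points in RBM25 against RBFOX1N groups (SE 0.65, adjusted p = 8.46e-05, quasi-binomial), by 9.15 points in RBM25_NT against dCasRx_NT (SE 0.93, adjusted p = 9.09e-05) and by 3.87 points in RBFOX1N_NT against dCasRx_NT (SE 0.80, adjusted p = 0.0174). This exon was chosen after its values were seen, as were the TRA2B 116 nt, TRA2A 189 nt and 129 nt, CLK1 91 nt, CLK2 80 nt, CLK3 167 nt and 83 nt, CLK4 167 nt and 88 nt, SRPK1 166 nt and SRPK2 93 nt exons, and the TRA2B 639 nt, TRA2A 176 nt, CLK1 88 nt and 732 nt, CLK3 2341 nt and DYRK1A introns. With 2989 to 5933 reads per library, counting error is small beside the spread between replicates; limma on logit values gave adjusted p of 0.0776, 0.0649 and 0.181 for the 3 comparisons, and the last call was also lost without RBFOX1N_NT replicate 2 or without either dCasRx library, at -4.21 to -3.18 points. The 116 nt coding exon of TRA2B, at 98.1% to 99.6% PSI in all libraries, fell by 0.51 points in RBM25 against RBFOX1N groups (SE 0.15, adjusted p = 0.0324), a call lost without each of 8 single libraries. It also fell by 1.05 points in RBM25_NT (SE 0.21, adjusted p = 0.0167) and by 0.82 points in RBFOX1N_NT (SE 0.20, adjusted p = 0.0424) against dCasRx_NT, and all 10 effector libraries lay below both dCasRx libraries. Each of these calls was lost without any 1 of the 4 libraries compared, at -1.08 to -1.03 points in RBM25_NT and -0.84 to -0.8 points in RBFOX1N_NT.

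The matching exon of TRA2A, whose sequence stands beside it above, stayed within a narrower range. The TRA2A 189 nt exon had 97.5% and 96.7% PSI in RBM25_NT, 95.8% and 96.2% in RBM25_MAPT, 97.7% and 96.1% in RBM25_CD46, 97.2% and 96.9% in RBFOX1N_NT, 96.9% and 96.5% in RBFOX1N_MAPT, and 98.1% and 98.1% in dCasRx_NT. The RBM25 and RBFOX1N libraries overlapped, with a difference of -0.24 points (SE 0.35, adjusted p = 0.717, quasi-binomial), and the differences from dCasRx_NT were -1.06 points for either effector (SE 0.48 and 0.50, adjusted p = 0.278 and 0.328). Whether the responses of TRA2B and TRA2A differ was not tested.

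The TRA2B exon of 134 nt, at chr3:185926601-185926734, moved the other way between the effectors. Its length is not a multiple of 3, and 1 annotated coding transcript carries it as coding sequence and 1 skips it. PSI was 94.4% and 93.9% in RBM25_NT, 94.7% and 94.3% in RBM25_MAPT, and 91.8% and 93.4% in RBM25_CD46, against 90.3% and 88.9% in RBFOX1N_NT and 88.2% and 89.7% in RBFOX1N_MAPT; it was 94.5% and 96.0% in dCasRx_NT. All RBM25 libraries lay above all RBFOX1N libraries. TRA2B 134 nt inclusion rose by 4.47 points in RBM25 against RBFOX1N groups (SE 0.43, adjusted p = 1.9e-06, quasi-binomial) and fell by 5.63 points in RBFOX1N_NT against dCasRx_NT (SE 0.67, adjusted p = 0.000301). In RBM25_NT against dCasRx_NT the difference was -1.11 points (SE 0.57, adjusted p = 0.424). With limma on logit values the adjusted p of the first was 0.0563 and of the second 0.166.

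**Figure D3:**
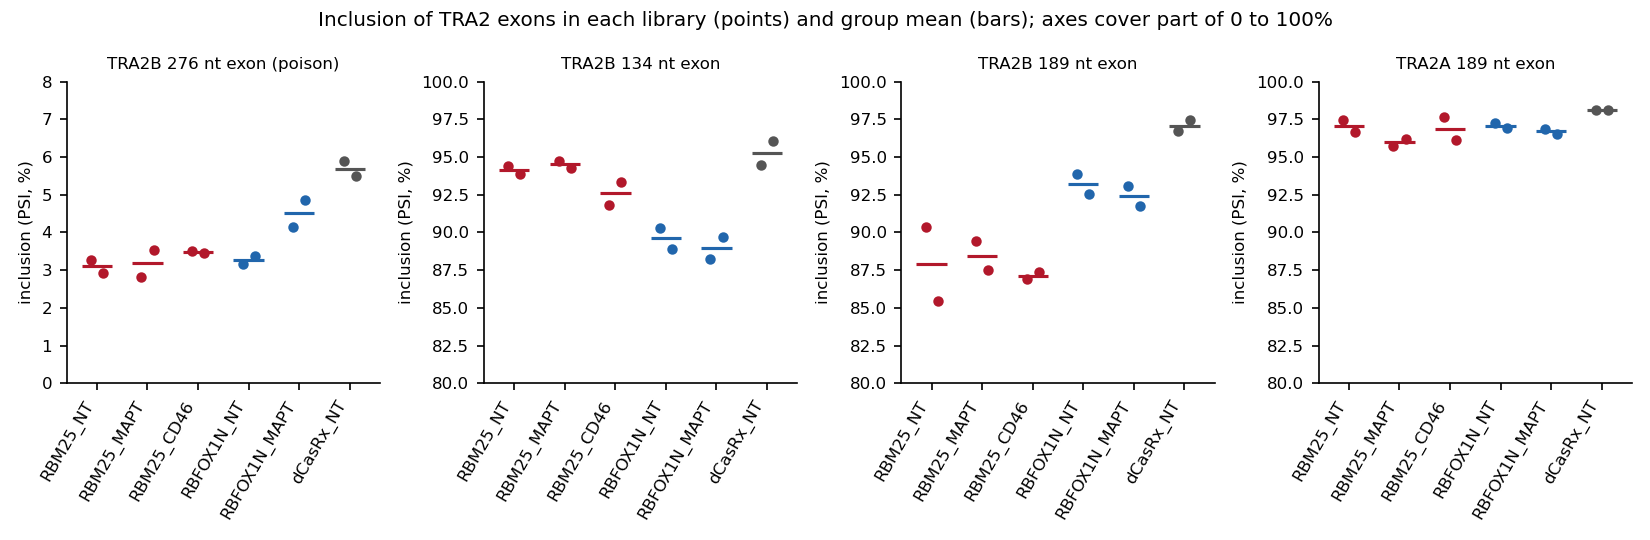
PSI in percent (y axes, each a part of the range of 0 to 100) of 3 TRA2B exons and the TRA2A 189 nt exon in the 6 groups (x axis); points are libraries and bars are means of 2. In the TRA2B 189 nt exon the effectors stand apart, at 85.5% to 90.4% with RBM25, 91.8% to 93.9% with RBFOX1N, and 96.7% and 97.4% with dCasRx.

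In TRA2A, the exon that GENCODE places in an NMD transcript, 79 nt at chr7:23522354-23522432, had 21.1% and 15.3% PSI in RBM25_NT and 15.1% to 18.0% in the other 4 RBM25 libraries, 14.4% to 18.0% in RBFOX1N libraries, and 16.3% and 13.1% in dCasRx_NT. The effectors overlapped and no comparison of it passed, with adjusted p of 0.99, 0.461 and 0.709 (quasi-binomial). In the alternative 3′ splice site event of TRA2A with the smallest p, use of the splice site that gives a 134 nt exon fell by 1.60 points in RBM25 against RBFOX1N groups (SE 0.36, adjusted p = 0.00666, quasi-binomial) and by 2.35 points in RBM25_NT against dCasRx_NT (SE 0.47, adjusted p = 0.0136), at 95.2% to 97.3% in RBM25, 97.1% to 98.2% in RBFOX1N, and 99.12% and 99.15% in dCasRx libraries. The call against dCasRx_NT was lost without RBM25_NT replicate 2 (-1.79 points) or either dCasRx library (-2.36 and -2.34 points), and both with limma on logit values. The TRA2A 129 nt exon was 5.67 points lower in RBM25 than in RBFOX1N groups (SE 1.46, adjusted p = 0.0283, quasi-binomial), but 1 of its inclusion junctions held 9 to 31 reads and the other 105 to 263, and the authors' quality score was below OK in 6 libraries. It was lost without RBFOX1N_MAPT replicate 2, RBFOX1N_NT replicate 1, RBM25_CD46 replicate 2 or RBM25_MAPT replicate 2, at -5.36 to -4.85 points. Its difference in RBM25_NT against dCasRx_NT was -7.57 points and did not pass (SE 2.56, adjusted p = 0.0819), but did without dCasRx_NT replicate 1, at -10.2 points (adjusted p = 0.0242). A 176 nt intron of TRA2A was retained at 1.1% to 3.12% with RBM25, 0.27% to 0.91% with RBFOX1N, and 0.95% and 0.93% with dCasRx, a difference of 1.73 points between RBM25 and RBFOX1N (SE 0.39, adjusted p = 0.0130) that was lost without RBFOX1N_MAPT replicate 1 (1.7 points) or RBM25_CD46 replicate 2 (1.58 points). A 639 nt intron of TRA2B was retained at 0.47% to 1.13% with RBM25 and 0% to 0.38% with RBFOX1N, a difference of 0.59 points (SE 0.17, adjusted p = 0.0362). That call was lost without either RBFOX1N_MAPT library, RBFOX1N_NT replicate 1, RBM25_CD46 replicate 2, RBM25_MAPT replicate 2 or RBM25_NT replicate 2, at 0.5 to 0.59 points. In RBM25_NT against dCasRx_NT the 639 nt intron differed by 0.25 points and did not pass (adjusted p = 0.668, quasi-binomial).

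Among the CLK kinases, the event called with at least 10 points was the 167 nt exon of CLK1, which was included more with RBM25. Its PSI was 77.2% and 56.4% in RBM25_NT, 68.4% and 65.1% in RBM25_MAPT, and 61.0% and 58.6% in RBM25_CD46, against 52.4% and 55.0% in RBFOX1N_NT and 48.0% and 46.4% in RBFOX1N_MAPT; it was 57.8% and 58.4% in dCasRx_NT. All 6 RBM25 libraries lay above all 4 RBFOX1N libraries, RBM25_NT replicate 2 narrowly, and the dCasRx libraries lay within the RBM25 range and above the RBFOX1N libraries. CLK1 167 nt inclusion rose by 14.0 points in RBM25 against RBFOX1N groups (SE 3.03, adjusted p = 0.00626, quasi-binomial), or by 10.5 points without RBM25_NT replicate 1. With limma on logit values the adjusted p was 0.123. In RBM25_NT against dCasRx_NT the difference was 8.70 points (SE 4.64, adjusted p = 0.4595); it was -1.68 points without RBM25_NT replicate 1 and 19.1 points without replicate 2 (adjusted p = 0.00416), so 1 library decides it; in RBFOX1N_NT against dCasRx_NT it was -4.38 points (SE 5.02, adjusted p = 0.754).

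The same exon of the paralogs CLK4 and CLK3 was included more than that of CLK1 in every library. The CLK4 167 nt exon had 94.8% to 98.9% PSI with RBM25, 91.3% to 100% with RBFOX1N, and 95.5% and 98.6% with dCasRx, with a difference of 0.40 points between RBM25 and RBFOX1N (SE 1.20, adjusted p = 0.982, quasi-binomial). The CLK3 167 nt exon, which shares 59.9% of its bases with that of CLK1, had 87.8% to 95.7% PSI with RBM25, 92.7% to 94.2% with RBFOX1N, and 93.7% and 96.1% with dCasRx, with a difference of -2.22 points (SE 1.17, adjusted p = 0.263). The CLK3 value turned on RBM25_NT: without replicate 1 it was -3.53 points and passed (adjusted p = 0.0139), and without replicate 2 it was -0.91 points. The CLK3 difference in RBM25_NT against dCasRx_NT was -3.11 points (SE 1.72, adjusted p = 0.435), -7.04 points without RBM25_NT replicate 1, where it passed (adjusted p = 0.0292), and 0.81 points without replicate 2. Within CLK1, the 117 nt exon just upstream, the skipped CLK1 exon with the most reads, had 76.9% to 87.6% PSI with RBM25, 78.95% to 85.7% with RBFOX1N, and 82.4% and 78.8% with dCasRx; its difference was -0.99 points (SE 1.55, adjusted p = 0.679).

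The exon upstream of the kinase domain whose skipping gives a catalytically inactive CLK1 is 91 nt long, at chr2:200860125-200860215. Its PSI was 44.8% and 44.7% in RBM25_NT, 50.9% and 52.1% in RBM25_MAPT, 47.8% and 49.1% in RBM25_CD46, 42.6% and 42.8% in RBFOX1N_NT, 46.2% and 46.9% in RBFOX1N_MAPT, and 52.4% and 49.0% in dCasRx_NT. The difference between RBM25 and RBFOX1N was 3.61 points (SE 1.36, adjusted p = 0.0912, quasi-binomial), and -8.04 points in RBFOX1N_NT against dCasRx_NT (SE 2.31, adjusted p = 0.083); neither passed. The CLK4 exon of 88 nt taken as its counterpart, which matches no annotated exon end to end, had 40.2% to 53.5% PSI with RBM25, 42.0% to 50.0% with RBFOX1N, and 52.0% and 54.7% with dCasRx. The CLK2 exon of 88 nt had 67.2% to 79.4%, 66.5% to 77.6%, and 81.8% and 86.0% PSI with RBM25, RBFOX1N and dCasRx. These values come from the authors' corrected reads. The junction counts listed beside them were uneven, at 75 to 135 and 14 to 40 for inclusion, against 85 to 288 for skipping. Taken alone, these counts would give a lower PSI for the CLK2 exon than the values listed, and the reason was not tested. For CLK2, both dCasRx libraries lay above the other 10, with differences of -7.70 and -7.29 points for RBM25_NT and RBFOX1N_NT that did not pass (adjusted p = 0.286 and 0.351).

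In CLK3, the 95 nt coding exon at chr15:74627352-74627446 was skipped more with RBM25. Its PSI was 95.6% and 91.5% in RBM25_NT, 91.2% and 93.9% in RBM25_MAPT, and 91.9% and 90.5% in RBM25_CD46, against 98.0% and 97.2% in RBFOX1N_NT, 98.5% and 96.9% in RBFOX1N_MAPT, and 96.1% and 98.4% in dCasRx_NT. All RBM25 libraries lay below all RBFOX1N and dCasRx libraries. CLK3 95 nt inclusion fell by 5.23 points in RBM25 against RBFOX1N groups (SE 0.76, adjusted p = 0.000399, quasi-binomial), and it passed in all 16 alternatives run for that comparison. In RBM25_NT against dCasRx_NT the difference was -3.71 points (SE 1.22, adjusted p = 0.155); it was -5.79 points without RBM25_NT replicate 1 and -1.64 points without replicate 2, and it passed with the RBM25 guides pooled (adjusted p = 0.0315). The 83 nt coding exon of CLK3 had 94.1% to 98.2% PSI with RBM25, 96.6% to 98.95% with RBFOX1N, and 98.4% and 97.7% with dCasRx. It fell by 2.03 points in RBM25 against RBFOX1N groups (SE 0.58, adjusted p = 0.0259), with overlapping libraries, and was lost without RBFOX1N_MAPT replicate 1 or 2, RBFOX1N_NT replicate 1, RBM25_CD46 replicate 1 or RBM25_NT replicate 2, at -2.1 to -1.35 points.

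CLK4 had 4 tested exons that GENCODE places outside coding transcripts or in more NMD than coding transcripts. Of these, the 83 nt exon is in 5 transcripts, 1 of them coding and 2 NMD, and is coding sequence in the first. The 59 nt exon had 25.2% and 23.5% PSI in RBM25_NT, 26.8% and 24.8% in RBM25_MAPT, 27.8% and 31.1% in RBM25_CD46, 41.9% and 34.5% in RBFOX1N_NT, 39.7% and 25.1% in RBFOX1N_MAPT, and 22.1% and 23.6% in dCasRx_NT. Its differences, -8.78 points between RBM25 and RBFOX1N (SE 2.99) and 15.4 points between RBFOX1N_NT and dCasRx_NT (SE 4.63), did not pass (adjusted p = 0.0607 and 0.104, quasi-binomial). The difference from RBFOX1N passed with matched guides, at -10.2 points, and without RBFOX1N_MAPT replicate 2, at -12.4 points (adjusted p = 0.0126), and was -5.14 points without RBFOX1N_MAPT replicate 1. The 41 nt exon had 4.4% to 17.7% PSI, the 67 nt exon 2.1% to 7.0% and the 83 nt exon 80.1% to 96.8% over the 12 libraries, and the RBM25 and RBFOX1N libraries overlapped in each. These CLK4 events rest on 48 to 173 reads per library.

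**Figure D4:**
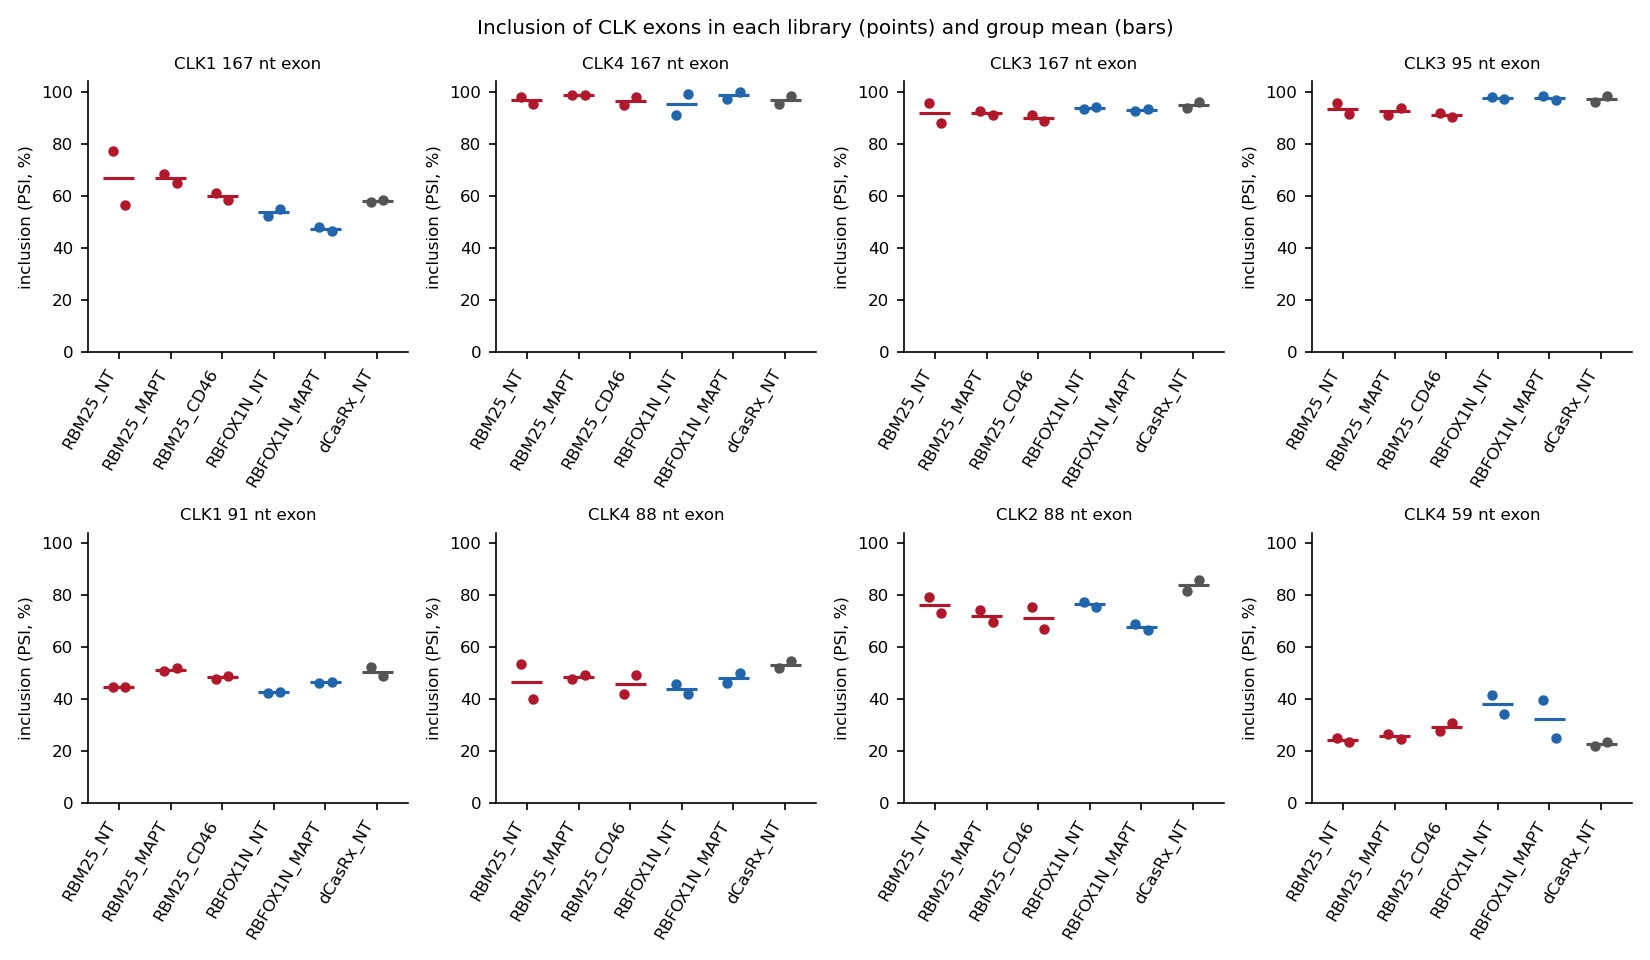
PSI in percent (y axis, 0 to 100) of 8 CLK exons in the 6 groups (x axis); points are libraries and bars are means of 2. The CLK1 167 nt exon runs between 56.4% and 77.2% with RBM25 and between 46.4% and 55.0% with RBFOX1N, while the CLK4 167 nt exon stays at 91.3% or above in all 12 libraries.

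Of the most retained introns of each CLK gene, those of CLK2 had the highest retention. The 692 nt intron of CLK2 at chr1:155268796-155269487 had 25.7% and 22.9% PSI in RBM25_NT, 18.7% and 16.4% in RBM25_MAPT, 23.5% and 20.2% in RBM25_CD46, 17.2% and 23.9% in RBFOX1N_NT, 21.0% and 16.9% in RBFOX1N_MAPT, and 25.0% and 28.5% in dCasRx_NT. The effectors overlapped between RBM25 and RBFOX1N and between RBM25 and dCasRx, and no comparison passed. The neighbouring 348 nt intron had 14.4% to 19.4% PSI with RBM25, 12.8% to 16.4% with RBFOX1N, and 23.7% and 22.9% with dCasRx. It fell by 8.11 points in RBFOX1N_NT against dCasRx_NT (SE 2.05, adjusted p = 0.0489, quasi-binomial), a call that held in 2 of 10 alternatives and was lost without any 1 of the 4 libraries compared, at -9.31 to -6.91 points. The difference of this intron in RBM25_NT against dCasRx_NT was -4.30 points (SE 2.00, adjusted p = 0.303) and passed with the RBM25 guides pooled, at -6.7 points (adjusted p = 0.0283). These 2 introns flank the 88 nt exon, so their values share reads with it. A CLK2 exon of 80 nt fell by 9.20 points in RBFOX1N_NT against dCasRx_NT (SE 2.15, adjusted p = 0.0293), at 84.85% and 82.7% PSI in RBFOX1N_NT against 90.7% and 95.25% in dCasRx_NT, but 1 of its inclusion junctions held at most 1 read in every library, and the call was lost without either RBFOX1N_NT library (-10.3 and -8.11 points) or dCasRx_NT replicate 2 (-6.9 points).

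The CLK1 introns were retained less. Both the 1022 nt and the 378 nt intron of CLK1, which flank its 91 nt exon, were retained at 1.55% to 9.4% over all libraries, and no comparison of them passed. CLK1 introns further along the transcript were retained more with RBM25 than with RBFOX1N: the 732 nt intron had 4.3% to 8.3% PSI with RBM25 and 1.3% to 4.2% with RBFOX1N, a difference of 4.28 points (SE 1.04, adjusted p = 0.0160, quasi-binomial), and the 88 nt intron had 3.1% to 6.9% with RBM25 and 0.91% to 2.6% with RBFOX1N, a difference of 3.23 points (SE 0.85, adjusted p = 0.0286). These introns adjoin the 167 nt exon on either side. The 732 nt call was lost without RBFOX1N_MAPT replicate 2 (3.73 points) or RBFOX1N_NT replicate 1 (4.09 points). The 88 nt call was lost without either RBFOX1N_MAPT library, RBFOX1N_NT replicate 1, RBM25_CD46 replicate 1, RBM25_MAPT replicate 2 or RBM25_NT replicate 1, at 2.59 to 3.48 points. The 87 nt intron of CLK4 at the same place had 4.7% to 9.1% PSI with RBM25 and 0% to 4.7% with RBFOX1N, a difference of 5.41 points (SE 1.70, adjusted p = 0.0494) that held in 3 of 15 alternatives; it was lost without any single library but RBFOX1N_NT replicate 1 and RBM25_NT replicate 2, at 4.4 to 5.66 points. In RBM25_NT against dCasRx_NT the CLK1 732 nt, CLK1 88 nt and CLK4 87 nt introns differed by 3.51, 2.90 and 5.88 points, and none passed (adjusted p = 0.402, 0.373 and 0.336, quasi-binomial). The 180 nt intron of CLK2 was 3.88 points higher in RBM25 than in RBFOX1N groups (SE 0.97, adjusted p = 0.0218), at 7.7% to 11.7% with RBM25, 4.7% to 7.1% with RBFOX1N and 8.3% to 11.8% with dCasRx. That call was lost without RBFOX1N_MAPT replicate 2 (3.35 points), RBFOX1N_NT replicate 1 (3.28 points) or RBM25_MAPT replicate 2 (3.63 points). The CLK2 180 nt intron differed by 0.34 points in RBM25_NT and -4.17 points in RBFOX1N_NT against dCasRx_NT, and neither passed (adjusted p = 0.966 and 0.272, quasi-binomial). The most retained introns of CLK3, of 674 nt and 277 nt, had 9.2% to 16.1% and 0.9% to 7.4% PSI over all libraries and did not pass. CLK3 also held the 1 intron that passed lower with RBM25, of 2341 nt, at 0% to 0.96% with RBM25, 1.63% to 5.67% with RBFOX1N, and 0.69% and 0.72% with dCasRx, a difference of -3.01 points (SE 0.74, adjusted p = 0.00367), or -2.4 points without RBFOX1N_MAPT replicate 1, where it no longer passed. Retention listed at 0% allows, by counting error, up to 1.34% for this CLK3 intron in RBM25_MAPT replicate 2 and up to 6.12% for the 87 nt CLK4 intron, each from 3 counts of the library's reads.

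DYRK1A differed in exon inclusion as well as in level, and here RBM25 stood apart from both RBFOX1N and dCasRx. Its 148 nt exon, at chr21:37486467-37486614 and in 15 of the 18 annotated coding transcripts, had 88.7% and 89.8% PSI in RBM25_NT, 91.4% and 91.5% in RBM25_MAPT, and 86.5% and 92.8% in RBM25_CD46. It had 99.2% and 98.3% PSI in RBFOX1N_NT, 97.9% and 99.3% in RBFOX1N_MAPT, and 100% and 98.6% in dCasRx_NT. All 6 RBM25 libraries lay below the 6 others. DYRK1A 148 nt inclusion fell by 8.55 points in RBM25 against RBFOX1N groups (SE 1.05, adjusted p = 5.47e-05, quasi-binomial) and by 10.1 points in RBM25_NT against dCasRx_NT (SE 1.83, adjusted p = 0.0220). In RBFOX1N_NT against dCasRx_NT the difference was -0.54 points (SE 0.89, adjusted p = 0.864).

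The next exons of DYRK1A were also included less with RBM25. The 242 nt exon had 86.3% to 92.4% PSI with RBM25, 97.6% to 99.1% with RBFOX1N, and 100% and 98.6% with dCasRx; it fell by 9.43 points in RBM25 against RBFOX1N groups (SE 1.21, adjusted p = 9.15e-05, quasi-binomial) and by 11.7 points in RBM25_NT against dCasRx_NT (SE 2.03, adjusted p = 0.0172). The 107 nt exon had 88.8% to 94.3% PSI with RBM25, 96.9% to 99.1% with RBFOX1N, and 100% and 98.3% with dCasRx; it fell by 6.93 points (SE 1.13, adjusted p = 0.000865) and by 10.2 points (SE 2.06, adjusted p = 0.0309). These 3 events follow each other along the gene, and the 242 nt and 107 nt ones overlap annotated coding exons without matching their ends, so they may share junction reads and are not 3 independent results. They were the 3 events called in RBM25_NT against dCasRx_NT. The differences from RBFOX1N passed in all 16 alternatives for each exon, while each difference from dCasRx_NT was lost without dCasRx_NT replicate 1 or 2 or RBM25_NT replicate 1, and for the 148 nt and 107 nt exons without RBM25_NT replicate 2, at -12.4 to -9.33 points over the 3 exons. All 3 were also lost with limma on logit values. The 148 nt exon had 104 to 353 reads per library, and 0 to 15 reads across its skipping junction.

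The introns between these exons were retained more with RBM25. The 3560 nt intron, at chr21:37486615-37490174, had 8.4% and 3.8% PSI in RBM25_NT, 11.7% and 9.0% in RBM25_MAPT, 7.7% and 5.2% in RBM25_CD46, 0% and 1.1% in RBFOX1N_NT, 1.4% and 1.6% in RBFOX1N_MAPT, and 4.0% and 1.1% in dCasRx_NT. RBM25 and RBFOX1N did not overlap, with a difference of 6.58 points (SE 1.19, adjusted p = 0.00261, quasi-binomial). The 2555 nt intron of DYRK1A had 3.2% to 7.8% PSI with RBM25, 0% to 1.8% with RBFOX1N, and 0% in both dCasRx libraries, where 32 and 49 reads allow up to 9.38% and 6.12%. Its difference from RBFOX1N was 5.10 points (SE 1.12, adjusted p = 0.0105). The differences of the 3560 nt and 2555 nt introns in RBM25_NT against dCasRx_NT, 3.58 points (SE 2.06) and 4.58 points (SE 1.60), did not pass (adjusted p = 0.473 and 0.274).

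**Figure D5:**
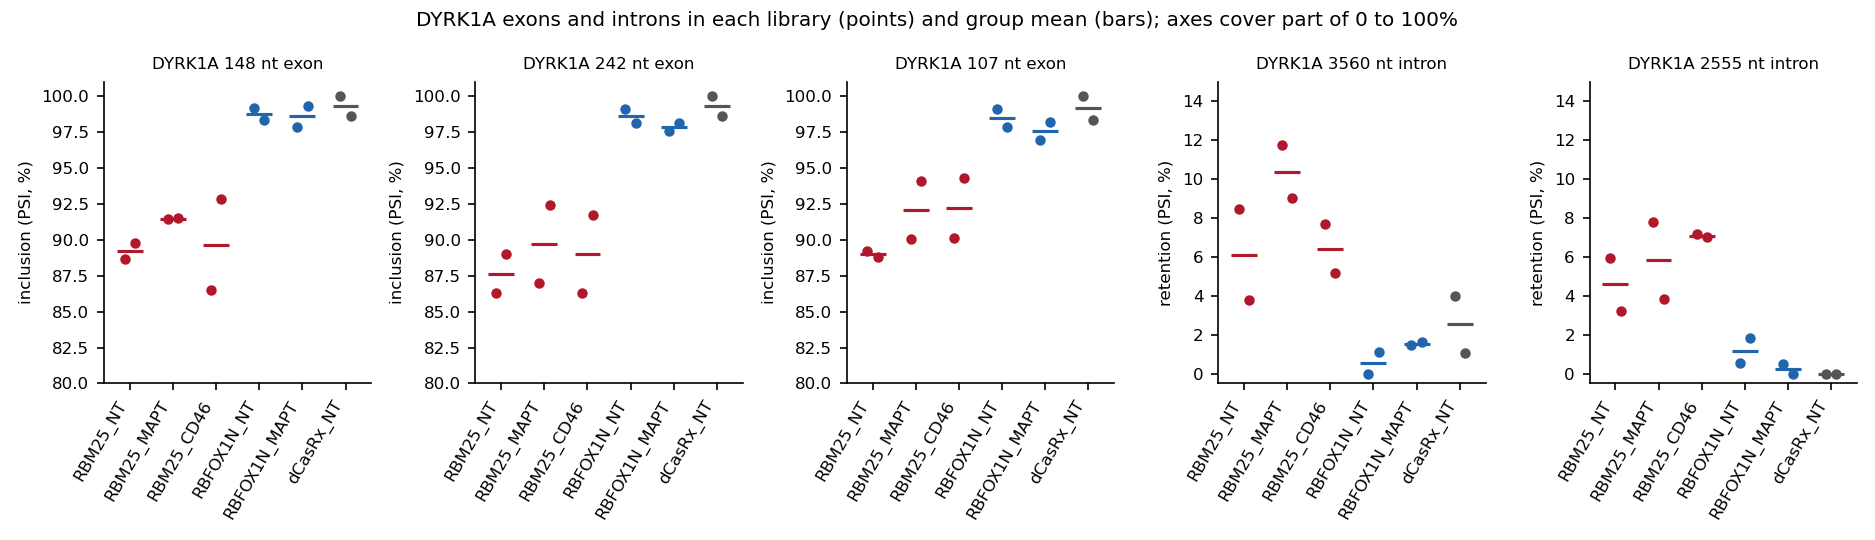
PSI in percent (y axes, 80 to 100 for exons and 0 to 15 for introns) of 3 consecutive DYRK1A exon events and 2 introns in the 6 groups (x axis); points are libraries and bars are means of 2. For the 148 nt exon all RBM25 libraries are at or under 92.8% and all others at or above 97.9%.

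In the SRPK kinases the events that passed differed by at most 7.04 points. In SRPK2 the 166 nt exon had 94.7% to 97.4% PSI with RBM25, 97.75% to 100% with RBFOX1N and 100% in both dCasRx libraries, and fell by 3.09 points in RBM25 against RBFOX1N groups (SE 0.75, adjusted p = 0.0185, quasi-binomial), a call lost without RBFOX1N_MAPT replicate 1 (-2.95 points) or RBFOX1N_NT replicate 2 (-2.9 points). In RBM25_NT against dCasRx_NT it fell by 4.80 points (SE 1.18, adjusted p = 0.0413), a call lost in 6 of 10 alternatives, among them each that leaves out 1 of the 4 libraries, at -5.35 to -4.26 points. For the SRPK2 166 nt exon, 1 inclusion junction held 97 to 193 reads and the other 10 to 29, against 0 to 6 reads of skipping. The authors' quality score for it was below OK in 1 library. An SRPK2 exon of 93 nt that 2 coding transcripts carry and 3 skip had 4.4% to 13.5% PSI with RBM25, 9.3% to 18.2% with RBFOX1N, and 14.6% and 8.3% with dCasRx. Its inclusion junctions were uneven, with 0 to 6 reads in 1 and 12 to 37 in the other. The 93 nt exon fell by 7.04 points in RBM25 against RBFOX1N groups (SE 2.20, adjusted p = 0.0342, quasi-binomial), with overlapping libraries. That call was lost in 8 of 16 alternatives, among them those without RBFOX1N_MAPT replicate 2, RBFOX1N_NT replicate 1, either RBM25_CD46 library, RBM25_MAPT replicate 2 or RBM25_NT replicate 1, at -7.23 to -4.8 points. In SRPK1 the 214 nt exon rose by 1.91 points (SE 0.58, adjusted p = 0.0160) and the 166 nt exon fell by 2.33 points (SE 0.67, adjusted p = 0.0361), both at 94.4% PSI or above in every library. The first call was lost without RBFOX1N_MAPT replicate 2 (1.26 points) or RBFOX1N_NT replicate 1 (1.63 points), and the second without any single library but RBM25_MAPT replicate 1 and RBM25_NT replicate 1, at -2.65 to -1.89 points.

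No difference between guides passed among these genes. For RBM25_MAPT against RBM25_NT, RBM25_CD46 against RBM25_NT and RBFOX1N_MAPT against RBFOX1N_NT, edgeR called 0 of 9 genes, where 0.0% of all genes were called. DESeq2 also called 0 of the 9. In edgeR 0 of the 9 had an unadjusted p under 0.05, where 1026, 487 and 418 of the 20593 genes did. The quasi-binomial test called 0 of 137 events in each of these comparisons, where 0.000996%, 0.0% and 0.0% of all events were called (0.00199%, 0.00299% and 0.000996% passed at any difference). With limma on logit values 0 were also called. An unadjusted p under 0.05 (quasi-binomial) was found for 6, 3 and 9 of the 137, where 5834, 5923 and 5949 of the 100377 events had one. The difference between the MAPT guide's change with RBM25 and with RBFOX1N passed for 0 of the 9 genes (edgeR) and 0 of the 137 events (quasi-binomial), of which 0 genes and 1 event had an unadjusted p under 0.05. Over all, 765 of the 20593 genes and 5644 of the 100377 events did.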

How the data were processed

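Read counts per Ensembl gene, whole numbers without normalization, were deposited by the authors. A second deposited file lists splicing events, each with a percent (PSI) in every library. Beside each percent, the authors' table gives text with quality scores and the corrected inclusion and exclusion reads, laid out as vast-tools does, per the file headers. Per the submitters' processing notes, STAR 2.7.10, edgeR and hg38 were used, in roles not stated. Annotation, strand setting and vast-tools version are likewise not given in the sources, so overlapping and antisense genes are uncertain.

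Symbols came from the reference name table (62639 of 62710 identifiers matched). Gene counts were fitted in R 4.3.3 by edgeR 4.0.16 (TMM, filterByExpr by group, quasi-likelihood test) over 20593 genes, in 1 fit of the 6 group means with 6 residual degrees of freedom; levels are CPM with TMM-scaled library sizes. PSI was tested on the deposited reads of 100377 events with a minimum of 20 reads per library and 24 reads of the less used form over all libraries, by a quasi-binomial model with a dispersion moderated across events and floored at 1. All p-values were two-sided and adjusted over all genes or events (Benjamini-Hochberg). A gene was called at an adjusted p under 0.05, an event with also at least 10 points. Where a call of a single event is said to hold or be lost, only the adjusted p under 0.05 is meant. Both fits were tested on simulated data. The authors' design text calls the replicates biological; 2 libraries per group limit every comparison.

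Named were all 9 genes, every event called, and exons outside coding transcripts or in more NMD than coding transcripts. Each gene's event of smallest p between RBM25 and RBFOX1N was also named. For each CLK gene the 2 most retained introns and the skipped exon with most reads were added. Other events were chosen after their values were seen. The genes and lists were chosen with earlier results of these data known. Alternatives were other normalization (RLE), DESeq2 1.42.0, no filter, and other read and difference minimums. Also run were a moderated t test on logit values, other groupings of guides, only the groups compared, a replicate block and leaving out each library. That t test, named limma on logit values in the text, was coded after limma's method and did not use the limma package.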

Additional observations from a re-analysis of the deposited data

How the results depend on the processing

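Of 2040 values of named genes and events under alternatives, 93 changed sign, from 49 of 171 results; in none of those 93 did the value pass an adjusted p under 0.05 under the main or the other setting. The 25 events that passed between RBM25 and RBFOX1N kept their direction in every alternative that measured them; 24 passed with the replicate block, 17 with matched guides, 12 with limma on logit values and 14 to 23 when 1 library was left out. Of the 9 that passed in RBM25_NT against dCasRx_NT, 1 passed with limma and 1 to 4 with a library left out; of the 6 in RBFOX1N_NT against dCasRx_NT, 0 and 1 to 2. Between RBM25 and RBFOX1N, 1 gene in place of 2 was called with only the groups compared, and 1 to 3 with a library left out. Events called there, 1 in the main setting, were 2 with matched guides, 10 at 5 points, 0 at 15 points, 4 at 10 reads per library, 0 with limma on logit values, and 1 to 2 with a library left out. In RBM25_NT against dCasRx_NT, 3 events were called in the main setting, 1 with guides pooled, 0 at 15 points, 0 with limma and 0 to 2 with a library left out, and 0 to 1 genes in place of 1. In RBFOX1N_NT against dCasRx_NT, 3 events in place of 0 were called at 5 points and 0 to 1 with a library left out. Over all 100377 events, matched guides gave 5851 that passed higher and 6329 lower, against 6806 and 7273 in the main setting between RBM25 and RBFOX1N. With guides pooled, 470 events were called higher and 605 lower between RBM25 and dCasRx_NT, against 292 and 444 in the main setting. For the other alternatives the share over all events is not given here. Those counts therefore do not show whether the listed events differ from all events. The causes were not tested. Replicate numbers share only a number: replicate differences correlated at -0.098 to 0.166 over 15 pairs of groups. With the replicate block, 2, 1 and 1 genes and 1, 3 and 0 events were called in the 3 comparisons of effectors, as without it, and 0 in each comparison of guides. Named introns of DYRK1A had as few as 32 reads in a library, and events under 20 reads in any library were not tested.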
